A study of Homo sapiens with 4 samples.

Results

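The regions described here are the ChIP-seq regions assigned to 6 genes of cytosolic RNA sensing, DHX58, DDX58, IFIH1, TKFC, DDX3X and ATG5, in T98G cells. A region was taken where the deposited table named one of the 6 as its nearest gene, which gave 9 of the 29302 regions. All regions within 200 kb of each gene's deposited span were added as local background, and these were 18 further regions assigned to other genes. The rule used gene names and positions, while the genes themselves were chosen with earlier results of these data known. DHX58 had 1 region, DDX58 1, IFIH1 2, TKFC 1, DDX3X 1 and ATG5 3.

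RIG-I-like receptors are cytosolic RNA helicases that bind viral double-stranded RNA. RIG-I, encoded by DDX58, and MDA5, encoded by IFIH1, then signal through their CARD domains to the mitochondrial adaptor MAVS, which leads to activation of IRF and NF-kB factors and to transcription of type I interferon. LGP2, encoded by DHX58, lacks these domains and acts on the other sensors, assisting MDA5 and restraining RIG-I in many settings, and all 3 receptor genes are themselves known to be induced by interferon. DDX3X encodes an RNA helicase that can assist this signalling, TKFC encodes a kinase of triose metabolism described as an inhibitor of MDA5, and ATG5 encodes an autophagy protein whose conjugate with ATG12 was described as an inhibitor of RIG-I and MAVS.

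T98G is an established human glioblastoma cell line. The series held 4 samples: vector-carrying cells and LGP2-overexpressing cells each gave 1 ChIP sample and 1 input (chromatin sequenced without the antibody step). The treatment label reads overexpressed LGP2 on all 4 samples, the vector pair included, and the genotype label tells the groups apart. Column headers name the construct pCW; no label states a dose, a time of induction or a clone, and LGP2 protein or RNA was not measured in these values. In the study the vector pair stands with ChIP-seq against crotonylated lysine, a modification of histones and other proteins. No source used here names an antibody for the LGP2 sample. If the antibodies differed, condition and antibody cannot be told apart.

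Each region carried 1 normalized read density per ChIP library. The densities were traced back to whole reads in an inferred window of 2 kb, with 1 read added to each library. Calling was done per library, which gave 16076 regions found with LGP2 only, 13147 with the vector only and 79 in both. Depth was low throughout, with a median of 3 LGP2 reads at LGP2-only regions and 4 vector reads at vector-only regions, and at most 11 and 14. Every difference below therefore describes 1 library against 1 library without a replicate check. Read intervals are exact Poisson 95% intervals and intervals of shares are exact Clopper-Pearson 95% intervals, and both cover counting error only, since reads without molecular identifiers need not be independent molecules. A region entered the table because a library called it, which moves its read share toward that library. LGP2 held 69.5% of the reads over all LGP2-only regions, 22.7% over all vector-only regions and 48.9% over all regions. An even split is therefore not the reference for a called region. Absence from the table means that no region was called near that gene, not that the library had no reads there.

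The first question was whether a called region lay at the starts of these genes. RefSeq promoter windows, 250 bases before to 50 after each start on GRCh38.p14, were found for 5 of the 6 genes, as 8 windows (no entry was matched for DHX58). Of these 8, 0 overlapped a called region, and over all genes 252 of 35116 windows did (0.718%). The 250 bases before the start are shown for both sensor genes with an entry and for TKFC, whose label as a promoter region is examined below. Capitals mark the core of the interferon-stimulated response element, searched as GAAANNGAA on both strands.
IFIH1 promoter, chr2:162318685-162318934, minus strand: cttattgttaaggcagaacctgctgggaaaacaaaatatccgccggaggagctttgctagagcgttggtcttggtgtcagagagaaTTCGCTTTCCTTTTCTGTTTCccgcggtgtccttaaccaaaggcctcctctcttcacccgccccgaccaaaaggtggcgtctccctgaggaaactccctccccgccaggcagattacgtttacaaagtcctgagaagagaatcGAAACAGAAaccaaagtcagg
DDX58 promoter, chr9:32526197-32526446, minus strand: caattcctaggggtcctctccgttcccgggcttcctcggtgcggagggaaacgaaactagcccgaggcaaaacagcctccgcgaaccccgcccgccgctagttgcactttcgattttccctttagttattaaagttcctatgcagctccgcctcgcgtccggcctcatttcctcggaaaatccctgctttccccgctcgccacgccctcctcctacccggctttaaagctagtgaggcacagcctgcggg
TKFC promoter, chr11:61332978-61333227, plus strand: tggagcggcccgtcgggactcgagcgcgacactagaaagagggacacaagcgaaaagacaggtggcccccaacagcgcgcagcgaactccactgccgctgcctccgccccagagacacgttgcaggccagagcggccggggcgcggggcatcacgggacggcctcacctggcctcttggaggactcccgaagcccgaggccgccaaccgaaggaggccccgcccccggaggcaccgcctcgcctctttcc
The IFIH1 window held 4 matches. Of these, 3 overlapped one another on the other strand, from 164 to 144 bases before the start, and 1 lay on the given strand from 21 to 13 bases before it. The windows of the other 4 genes held 0 matches, and 8.11% of all promoter windows held at least 1. Only this pattern with its fixed spacing was searched, so 0 matches do not show that a window had no interferon-response element. A second motif, TTCNNNGAA (a STAT site, found in 7.66% of all windows on either strand), was present in 1 of the 8 windows, the downstream of the 2 ATG5 windows, which also held the single TATAA (20.4% of all windows). That ATG5 window held 2 CG dinucleotides and the other 22, against 27 in DDX58, 12 in IFIH1, 35 in TKFC, 26 to 37 in the 3 DDX3X windows and a median of 14 over all windows. These matches describe the letters of the windows alone. The nearest called region to the IFIH1 window was 3.29 kb away. It was 7.88 kb away for TKFC, 57.2 kb for DDX58, 31.5 to 32.4 kb for DDX3X, and 2.21 and 11.4 kb for ATG5, in each case a region assigned to the gene itself.

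DHX58, which encodes LGP2 itself, is the overexpressed gene and is reported first. Its single region, chr17:42112024-42112364, was called only with the vector, 99 bp from the start of the transcript the table assigned and with its centre 520 bp past the RefSeq start. It was the only one of the 9 regions whose 2 kb window held the RefSeq start of its own gene. The LGP2 library had 6 reads (2.2 to 13.1) in this window and the vector library 3 (0.619 to 8.77). The order of the reads was thus opposite to the call, although the intervals overlapped. In normalized density the values were 3.71 and 1.89 reads per kb, a log2 ratio of 0.98, and LGP2 held 66.7% of the 9 reads (29.9 to 92.5%). Among the 13147 vector-only regions, 320 (2.43%) had more LGP2 than vector reads, and 9 (0.0685%) had a ratio as high as that of DHX58 or higher. By reads alone, 53 (0.403%) had at least double the reads in the LGP2 library, as DHX58 did. The call itself rested on 3 vector reads, a number that 86.0% of vector-only regions reached. The 2 kb window also reached the neighbouring gene KAT2A, and reads from the LGP2 construct and from the chromosomal gene cannot be told apart in a table of regions.

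DDX58, the RIG-I gene, had 1 region, chr9:32468571-32468912, in intron 14 of 17 and 57.45 kb past the start. It was called only with LGP2. The LGP2 library had 6 reads (2.2 to 13.1) and the vector library 0 (0 to 3.69), or 3.65 and 0.479 in density. LGP2 held 100% of the 6 reads (54.1 to 100%), where its share over all LGP2-only regions was 69.5%. The log2 ratio of 2.93 depends on the read added and is no bound. Of the 16076 LGP2-only regions, 1222 (7.6%) had 6 or more LGP2 reads, and 139 (0.865%) had the same 6 and 0. On the same chromosome the first such regions by position were at PAX5, OR1L1 and ADGRD2.

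IFIH1, the MDA5 gene, had 2 regions, both called only with the vector. The region within the gene, chr2:162314992-162315343 in intron 1 of 15 and 3.52 kb past the start, had 4 reads in each library (1.09 to 10.2), a log2 ratio of 0.16. The other, chr2:162258396-162258837, lay in intergenic sequence 8237 bp beyond the 3′ end and had 0 LGP2 reads (0 to 3.69) and 5 vector reads (1.62 to 11.7). The LGP2 share there was 0% (0 to 52.2%), which includes an even split and the 22.7% over all vector-only regions. The log2 ratio was -2.47 with the read added. The 2 regions of 1 gene thus differed, with equal reads inside it and reads from the vector library alone behind it. Together they held 4 LGP2 and 9 vector reads, an LGP2 share of 30.8% (9.09 to 61.4%), which includes both values as well. Equal reads of 4 and 4 were found at 117 vector-only regions (0.89%), on chromosome 2 first at SMC6, SERTAD2 and NCK2, and 0 and 5 at 652 (4.96%).

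TKFC, the described MDA5 inhibitor, had 1 region, chr11:61341158-61341610, called only with LGP2. The table labels it a promoter, 65 bp from the start of a retained-intron transcript, but its centre was 8.16 kb inside the RefSeq gene, far from the promoter printed above. It had 6 LGP2 reads (2.2 to 13.1) and 0 vector reads (0 to 3.69), the same pair as the DDX58 region. The LGP2 share (54.1 to 100%) and the log2 ratio of 2.93 were therefore the same. The first regions on chromosome 11 with the same reads were at UPK2 and TBCEL.

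DDX3X, the helicase gene on the X chromosome, had 1 region, chrX:41365742-41366456, which at 714 bp was the widest of the 9 (median of all regions 306 bp). It was called only with the vector and lay 1270 bp beyond the 3′ end. The LGP2 library had 0 reads (0 to 3.69) and the vector library 4 (1.09 to 10.2), or 0.52 and 2.4 in density. The LGP2 share was 0% (0 to 60.2%), which includes an even split and the 22.7% over all vector-only regions. The log2 ratio was -2.21 with the read added. This pair of values was common, at 1217 vector-only regions (9.26%), on the X chromosome first at AKAP17A, ARSH and PPEF1.

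ATG5, the autophagy gene, had 3 regions with 3 different patterns. At chr6:106157003-106157353, called only with LGP2, there were 4 LGP2 reads (1.09 to 10.2) and 1 vector read (0.0253 to 5.57), a log2 ratio of 1.46. At chr6:106181663-106181961, called only with the vector, the reads were the reverse, 1 and 4, with a log2 ratio of -1.19. Both were annotated to intron 6 of 6 of an Ensembl transcript but lay 27123 and 2515 bp beyond the 3′ end of the RefSeq gene. The LGP2-only region at chr6:106327896-106328168, 2136 bp upstream of the start, had 3 reads in each library (0.619 to 8.77) and a log2 ratio of 0.15. Summed over the gene there were 8 LGP2 and 8 vector reads (50%, 24.7 to 75.3%). Each pair of values was frequent in its set, with 1433 (8.91%), 1305 (9.93%) and 695 (4.32%) regions alike. The first on chromosome 6 were at ARMH2, ZNF391 and OR11A1, at IRF4, C6orf201 and NRN1, and at DSP, PRR3 and PACSIN1, in this order.

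The plot of reads at each region shows that the intervals of the 2 libraries overlapped at all 9 regions, also where 1 library had no read. Overlap of separate intervals does not compare the 2 counts. At DDX58 and TKFC the interval of the LGP2 share, 54.1 to 100%, left out an even split but included the 69.5% over all LGP2-only regions.

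**Figure D1:**
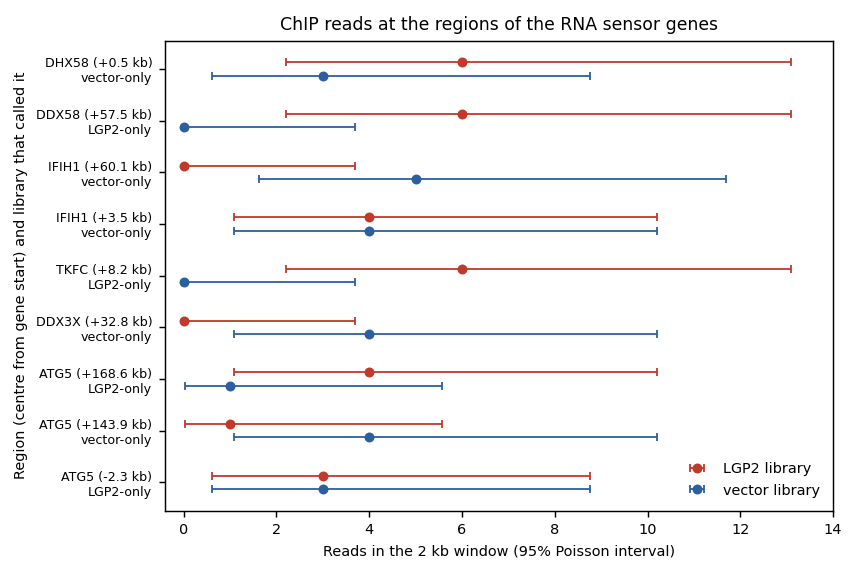
Reads in the 2 kb window (x axis) of the LGP2 library (red) and the vector library (blue) at each of the 9 regions (y axis, with the distance of the region's centre from the RefSeq gene start and the library that called it). Points are reads of 1 library each and bars are exact Poisson 95% intervals; DHX58 is the vector-only region with more LGP2 reads, 6 against 3.

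Over the 9 regions, LGP2 had 30 and the vector 24 of 54 reads, a share of 55.6% (41.4 to 69.1%), against 48.9% over all regions. The median log2 ratio was 0.16 against 0.15 over all regions. The ratio was 2-fold or more higher with LGP2 at 3 regions (DDX58, TKFC and 1 of ATG5) and 2-fold or more lower at 3 (1 each of IFIH1, DDX3X and ATG5), and 3 lay between. Over all regions 29.5% of regions were 2-fold or more higher and 25.2% lower, so that 3 of 9 in either direction was near the background. Within the sets, 3 of the 4 LGP2-only regions were 2-fold or more higher, where 53.8% of all LGP2-only regions were, and 3 of the 5 vector-only regions were lower, where 56.0% of all vector-only regions were. In an added count every 0 was set at 3 reads, and the ratio there was of unscaled reads without the read added. Other regions kept their density ratios. On this mixed scale 3 regions were 2-fold or more higher and 1 lower, against 18.3% and 11.6% of the table. DDX58 and TKFC lay exactly on the 2-fold cut, while DHX58, with 6 and 3 reads, stayed at 0.98. A 0 in 1 library occurred at 4 of the 9 regions (44.4%) and at 27.0% of all regions. The map of read pairs counts regions of every set and places the DHX58, DDX58 and TKFC regions, with 6 LGP2 reads each, toward the sparser side and the ATG5 and DDX3X regions among the dense pairs. Within the vector-only set alone, the pair of DHX58 was found at 5 regions (0.038%), its own included.

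**Figure D2:**
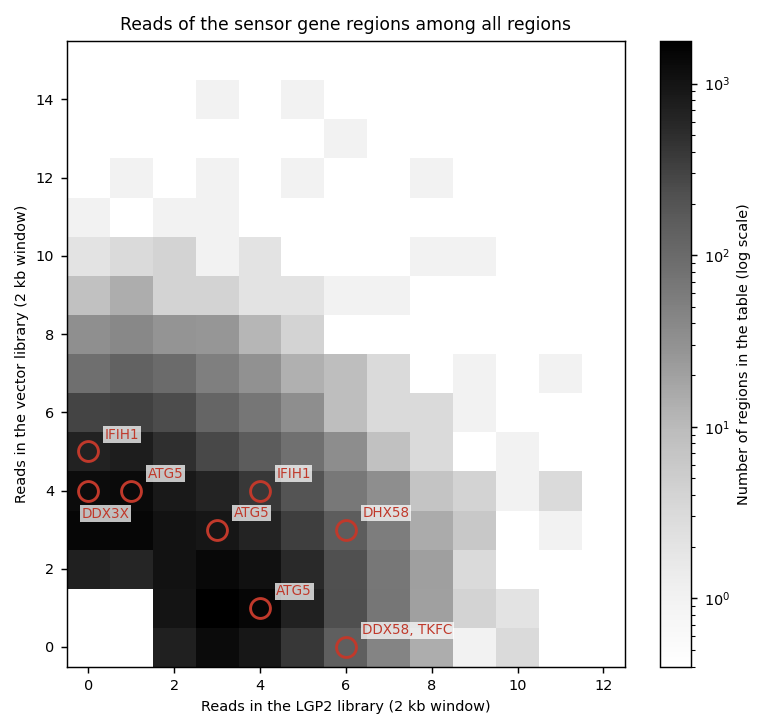
Number of regions in the table (grey, log scale) for each pair of LGP2 reads (x axis) and vector reads (y axis) in the 2 kb window, with the 9 regions of the sensor genes as red circles. DDX58 and TKFC share the pair of 6 and 0 reads, and DHX58 stands at 6 and 3.

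By position, 4 of the 9 regions (44.4%) had their centre inside the RefSeq gene, namely those of DHX58, DDX58 and TKFC and 1 of IFIH1. Of 12529 regions of coding genes matched to RefSeq, 69.0% did. The gene's own RefSeq start fell into the 2 kb window at 1 of 9 regions (11.1%) and at 339 (2.71%) of the matched regions. The table's own annotation put 3 of the 9 in promoters, 4 in introns and 2 in intergenic sequence, where the whole table had 20.1%, 42.0% and 33.2%. The table calls a region a promoter up to 3 kb from the start of any transcript. Of the 3, only that of DHX58 had the RefSeq start in its 2 kb window. That of TKFC had its centre 8.16 kb inside the RefSeq gene. That of ATG5 lay 2136 bp upstream of the RefSeq start, within the 3 kb reach. Several regions per gene were not unusual: of 7016 coding symbols with a region, 60.4% had 1, 22.2% had 2 and 17.4% had 3 or more.

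The 200 kb surroundings show whether the calls at a gene were shared by its neighbours. The 6 windows held 27 regions, 14 LGP2-only and 13 vector-only (51.9%, 31.9 to 71.3%, LGP2-only, against 55.0% of the table). Without the 9 regions above, the 18 regions of other genes were 10 and 8. Of these 18, 7 were 2-fold or more higher and 5 lower, where 29.5% and 25.2% of the table were. The number of regions per window ran from 2 to 6, where windows of 20037 RefSeq coding genes had a median of 5 (quartiles 3 and 7). The DDX3X window, with 2, lay below the lower quartile, and the others lay between the quartiles. Each of the 6 windows held a region of its own gene by the rule, which the background windows need not.

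The windows of IFIH1 and TKFC were each called in 1 library alone, in opposite directions. Around IFIH1 all 5 regions were vector-only (0 to 52.2% LGP2-only), while chromosome 2 had 55.6% LGP2-only. The regions of its neighbours were at GCG, the glucagon gene, with 1 LGP2 and 6 vector reads (log2 ratio -1.66), at FAP, a protease gene of activated fibroblasts, with 2 and 4 (-0.59), and at GCA, which encodes a calcium-binding protein, with 1 and 4 (-1.19). Around TKFC all 5 regions were LGP2-only (47.8 to 100% LGP2-only), where chromosome 11 had 59.4%. Its neighbours were VPS37C, a subunit of the ESCRT-I sorting complex, with 8 and 0 reads, PGA3, a pepsinogen gene, with 4 and 4 (0.16), LRRC10B with 4 and 1 (1.46) and SYT7, a synaptotagmin of vesicle fusion, with 5 and 1 (1.73). These neighbours lay 154.3 to 192.9 kb from the deposited TKFC span, and within 100 kb the TKFC window held its own region alone, while that of IFIH1 held 4 regions, all vector-only. Within 200 kb, 4 of the 5 TKFC regions had more LGP2 reads, and PGA3 had equal reads despite the call. Of the 5 IFIH1 regions, 2 were its own, and the one in intron 1 had 4 reads in each library despite the call. Among 2658 coding genes with exactly 5 regions in their window, 209 (7.86%) had LGP2-only regions alone and 35 (1.32%) vector-only regions alone; neighbouring genes share windows, and by its RefSeq span the TKFC window held 6 regions, all LGP2-only.

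The DDX58 window held 4 LGP2-only and 1 vector-only region. Its neighbours, none of them protein-coding in the table, were AL589642.1 with 2 and 3 reads (log2 ratio -0.27), AL589642.2 with 4 and 0, and SNRPCP1, a pseudogene, with 3 and 1 (1.13) and with 5 and 2 (1.15). They all lay upstream of DDX58, and its own region was the only one within or behind the gene. The DHX58 window was mixed, with 3 of 6 regions LGP2-only. The vector-only neighbours were ACLY, the gene of ATP citrate lyase, with 1 and 4 reads (-1.19), and DNAJC7, a chaperone gene, with 1 and 6 (-1.66), both with more vector reads, unlike the DHX58 region. The LGP2-only neighbours were C17orf113 with 3 and 2 (0.56), RAB5C, an endosomal GTPase gene, with 4 and 1 (1.46) and STAT5A, a transcription factor of cytokine signalling, with 4 and 2 (0.89). The DDX3X window had only 1 other region, at USP9X, a deubiquitinase gene, with 1 and 4 reads (-1.19). It was vector-only like that of DDX3X, on a chromosome with 40.1% LGP2-only regions. The ATG5 window also had 1 other region, vector-only, at AL109920.2, with 1 and 3 reads (-0.87), so its calls were 2 and 2.

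**Figure D3:**
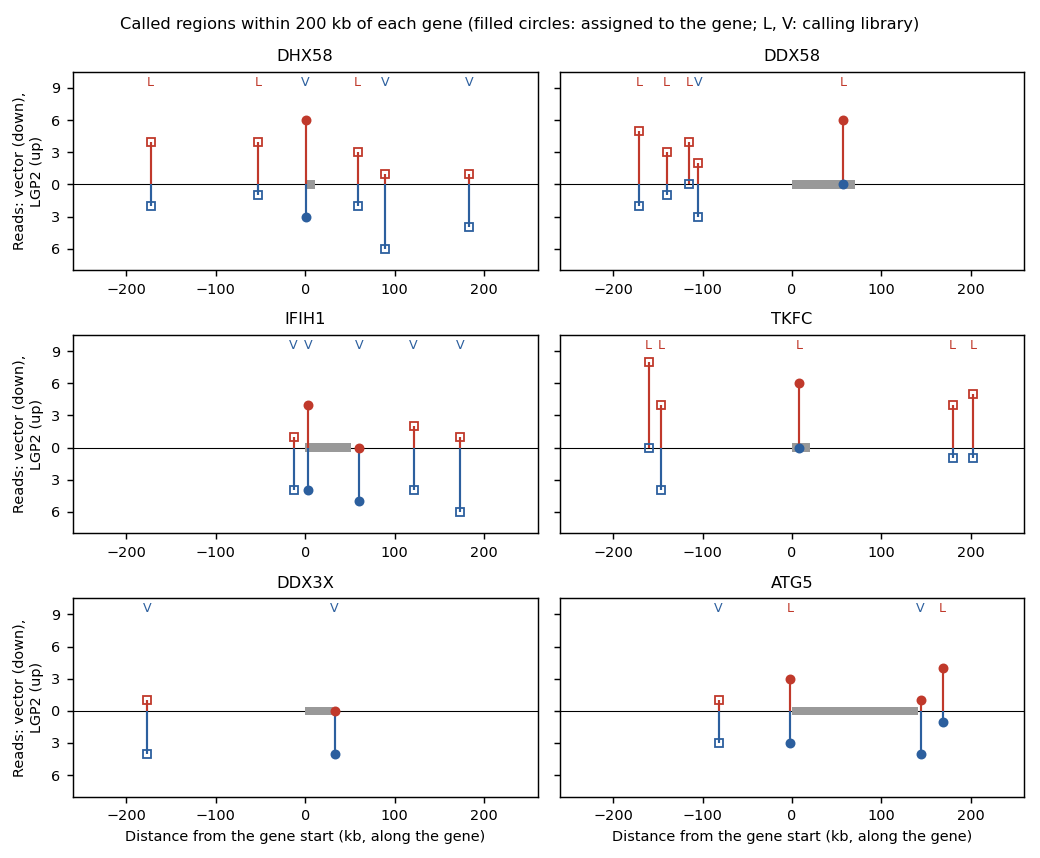
Called regions within 200 kb of each gene, by distance from the RefSeq gene start along the gene's direction (x axis, kb), with LGP2 reads drawn upward and vector reads downward. Filled circles are regions assigned to the gene, open squares those of other genes, the grey bar is the RefSeq gene, and L or V gives the library that called the region; IFIH1 has 5 V and TKFC 5 L.

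The rest of the pathway was described through 7 lists with 89 genes. Of these, 33 had a region (37.1%, where 34.7% of 20056 RefSeq coding genes did), with 46 regions, 31 LGP2-only (67.4%, against 55.0% of the table) and 15 vector-only. The ratio was 2-fold or more higher at 12 regions (26.1%) and lower at 7 (15.2%), against 29.5% and 25.2% of the table, and the median was 0.56 against 0.15. With zeros set at 3 reads, on the mixed scale described above, these were 10 and 3 regions and medians of 0.49 and 0.00. Assignment was to the nearest gene, and some of the 46 regions lay in intergenic sequence far from it. Of the 10 genes with 2 or more regions, 6 (60.0%) had ratios of both signs, near the 60.8% of 2776 coding symbols with 2 or more regions; by reads alone, with equal reads left out, 5 did.

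Regulators that modify the sensors had regions at 9 of 19 genes (47.4%), with 11 regions, 9 of them LGP2-only (81.8%, against 55.0% of the table). The ratio was higher at 5 regions (45.5%) and lower at 1 (9.09%), against 29.5% and 25.2% of the table, with a median of 0.56. TRIM25, the ubiquitin ligase of RIG-I, had 5 LGP2 and 2 vector reads (log2 ratio 1.15). TRIM4, another ligase described for RIG-I, had 7 and 3 (1.17). TRIM65, the ligase described for MDA5, had 5 and 1 (1.73) and 6 and 2 (1.38) at 2 regions. These lie so close, at chr17:75890846-75891134 and chr17:75892248-75893046, that their inferred 2 kb windows may share reads. CYLD, a deubiquitinase, had 3 and 0 reads, and MEX3C, a ligase, 0 and 2 at its lower region. These were too few for a fold to be given. Both were counted past 2-fold as deposited, but not with the 0 set at 3 reads. The adaptor and signalling complex had regions at 8 of 17 genes, 1 higher and 1 lower of 9 (11.1% each, median 0.15), and MAVS had none. CASP8, a caspase of the complex, had 4 and 1 reads (1.46), and TRAF6, a ubiquitin ligase of NF-kB signalling, 1 and 6 (-1.66). The TRAF6 region lay in intergenic sequence, 16552 bp from the start of the assigned transcript.

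Kinases had regions at 3 of 8 genes, 7 in all (median 0.75). Of these, 3 were higher (42.9%) and 2 lower (28.6%), against 29.5% and 25.2% of the table. CHUK, which encodes IKK alpha, had 3 and 1 reads (log2 ratio 1.13) at 1 region and 5 and 0 at another (47.8 to 100% LGP2 reads). IKBKB, which encodes IKK beta, had 5 and 1 (1.73). MAP3K7, which encodes TAK1, had 0 and 2 at each of its 2 lower regions, in intergenic sequence 17536 and 198113 bp upstream of the start. Both were past 2-fold as deposited, but not with the 0 set at 3 reads. TBK1 and IKBKE, the kinases of IRF3, had no region. Of 11 transcription factors 1 had a region, NFKB1, with 0 and 3 reads. It was past 2-fold lower as deposited, but not with the 0 set at 3 reads. Interferons and their receptors had 2 regions at 2 of 10 genes, none past 2-fold (median 0.56), and IFNB1 had none. Related RNA helicases had 4 regions at 4 of 12 genes, 1 higher and 1 lower (median 0.01): DICER1, the ribonuclease of microRNA maturation, with 5 and 2 reads (1.15), and DDX60L, a helicase gene related to DDX60, with 0 and 7 (0 to 41.0% LGP2 reads). The ATG5 conjugation partners had 12 regions at 6 of 12 genes, 2 higher and 1 lower (16.7% and 8.33%, median -0.01). ATG16L1, which binds the ATG12 and ATG5 conjugate, had 3 and 1 reads (1.13) at 1 of its 4 regions. Its regions at chr2:233212481-233212808 and chr2:233213559-233213821 lie close enough for their windows to share reads. ATG4B, a protease of the ATG8 proteins, had 6 and 2 (1.38), and ATG10, the enzyme that joins ATG12 to ATG5, 2 and 6 (-1.06). This ATG10 region lay in intergenic sequence, 24620 bp upstream of the start. The plot of ratios by list shows ratios of both signs in most lists, the 6 sensor genes included.

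**Figure D4:**
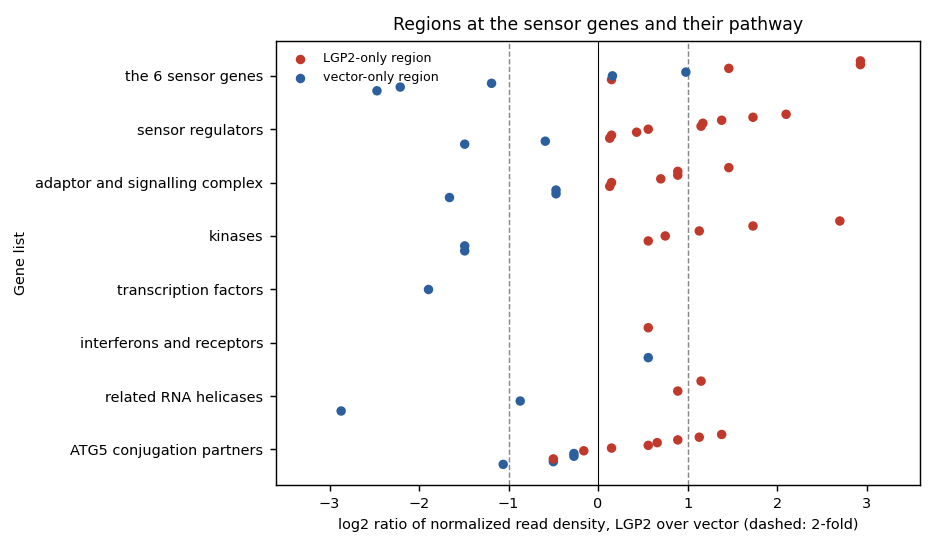
Log2 ratio of normalized read density, LGP2 over vector (x axis), for every region of the 6 sensor genes and of the 7 pathway lists (y axis), coloured by the library that called the region. Dashed lines mark 2-fold; ratios with 0 reads in 1 library depend on the 1 read added, and the sensor genes reach from -2.47 to 2.93.

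The ratios depended on how the 2 libraries were scaled to each other and on the read added. In none of 36 alternative values did a region take the other sign. These settings could not have reversed the regions with uneven reads, so the count says little about them. The IFIH1 and ATG5 regions with equal reads fell to 0.0 with no scaling and with scaling by the median. With 5 reads added the DDX58 and TKFC ratios were 1.26. Scaled by the reads that each library had at regions called only in the other, the median of all regions was 0.33 higher and the DHX58 ratio was 1.29, past 2-fold. In the other settings the DHX58 ratio was below 2-fold, at 0.63 with 5 reads added and 0.81 with no scaling or with scaling by the median. All 36 values lay within the counting interval of the ratio reported, which at these depths was wide.

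**Figure D5:**
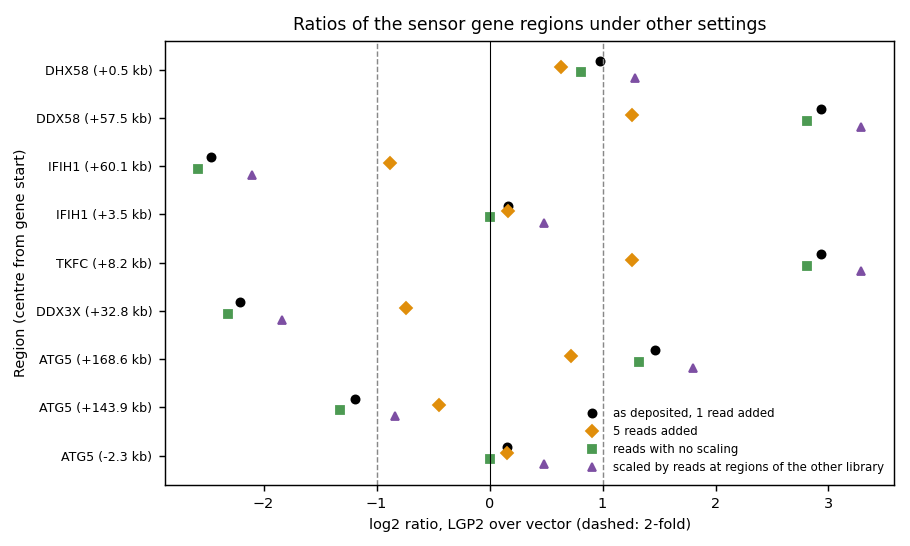
Log2 ratio, LGP2 over vector (x axis), of the 9 regions of the sensor genes (y axis) as deposited and with 5 reads added, with no scaling, and scaled by the reads at regions of the other library. Dashed lines mark 2-fold; with 5 reads added only DDX58 and TKFC, at 1.26, stay past it.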

How the data were processed

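ChIP and input libraries of T98G cells were made with 1 library per group, and the deposited table held both ChIP libraries. The inputs had no columns and were not analysed here. The authors deposited a normalized read density, a signal value, per library and region, with the set, the nearest gene and its annotation. Columns holding their log2 ratio, mean log2 level and p-value were not used for any result. The software for alignment, calling and normalization was not given in the sources used here. Although the labels name mm10, a mouse build, the positions were human and were read as GRCh38: 6 of 6 genes overlapped the RefSeq GRCh38.p14 gene of that symbol (DDX58 is RIGI there).

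The 2 densities gave whole reads at 100% of regions (tolerance 0.001), as reads plus 1 per 2 kb after a straight line in mean level was taken into the ratio (intercept 0.105, slope 0.0452). The product of the read numbers was whole at 100% of regions on a 2 kb scale and at 46.9% on a 1 kb scale. The window and its centring on the region are inferred. Summed over all windows there were 73695 LGP2 and 77095 vector reads; total depth is unknown. Ratios were computed from the densities. Since 1 library per group allows no test, regions were counted past 2-fold beside the share in the whole table, with exact 95% intervals for reads and shares. The read recovery was tested on simulated data. In an added count, a library with 0 reads was set at 3. The ratio there used unscaled reads without the read added, while other regions kept their density ratios.

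Named were the 6 genes, the nearest gene of every region within 200 kb, genes of the 7 lists with a region past 2-fold, and up to 3 coding genes on the same chromosome with the same reads in the same set (those of 1 IFIH1 region are not reported here); MAVS, TBK1, IKBKE, IFNB1 and KAT2A were named after values were seen. The 6 genes and the lists were chosen with earlier results of these data known. Promoter sequences are from RefSeq, GRCh38.p14. Other settings are given in the closing section. Python 3.11.15, pandas 2.3.3, numpy 2.4.6, scipy 1.17.1 and matplotlib 3.10.9 were used.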

Additional observations from a re-analysis of the deposited data

How the results depend on the processing

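No paired analysis was possible because each group had 1 ChIP library, and for the same reason no library could be left out. Of 36 alternative ratios at the 9 regions of the sensor genes, 0 changed sign, but these settings could not have reversed regions with uneven reads. The IFIH1 and ATG5 regions with equal reads fell to 0.0 with no scaling and with scaling by the median. With 5 reads added, 2 of the 9 regions were 2-fold or more higher and 0 lower (3 and 3 as reported). Over all regions 954 were then higher and 443 lower (8655 and 7388 as reported). With at least 5 reads over both libraries, 3987 were higher and 4046 lower. Higher regions were 53.9% of those past 2-fold as deposited, 68.3% with 5 reads added, 48.0% with no scaling or with scaling by the median (8647 higher, 9377 lower, median shifted by -0.15), and 66.2% with scaling by the reads at regions of the other library (11250 and 5738, median shifted by 0.33). The cause was not tested. Around the genes, the LGP2-only and vector-only regions numbered 14 and 13 within 200 kb, 6 and 9 within 100 kb, 46 and 31 within 500 kb, and 5 and 3 with at least 5 reads in the calling library. The share of calls thus changed with the window. With RefSeq spans, an alternative chosen after seeing the data, they were 15 and 13. Of the 9 assigned regions, 3 overlapped the deposited gene span and 4 the RefSeq gene (the latter chosen after seeing the data). Regions called in both libraries were 79 as deposited and 252 when regions within 1 kb were joined. With 4 to 9 reads over both libraries at each of the 9 regions, depth limits their ratios.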
